A study of Homo sapiens with 2 samples.

Results

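The genes described here encode the protein factors that start and extend polypeptide chains on the cytosolic ribosome, measured in 786-O, a long-established cell line from a human clear cell carcinoma of the kidney. Members were chosen by a rule on names. It takes every gene ID of the eIF1, eIF3, eIF4, eIF5 and eIF6 series. It also takes the EEF1A, EEF1B, EEF1D and EEF1G genes and EEF2K, plus EIF2A, EIF2D, PABPC1, PABPC4 and ETF1. The rule found 54 of 22595 gene IDs, and 53 of them had at least 20 counts over both libraries (called measured here), as did 14240 of all gene IDs. EIF4E1B, with 1 and 7 counts, was not measured. EIF2D stands in the tables under its older symbol LGTN, so its values are given beside the set and outside the counts. Elongation factor EEF2 is not matched by the rule and is treated the same way. One RNA-seq library was made from cells in medium with 25 mM glucose and 1 from cells in medium with 0 mM glucose. Both came from total RNA of the same line. The sources used here do not give the time without glucose, the library preparation or the meaning of the sample descriptions.

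Translation begins when the small ribosomal subunit, loaded with initiator tRNA and the factors eIF1, eIF1A, eIF3 and eIF5, is brought to the capped end of an mRNA by eIF4F and scans to the start codon. eIF4F is made of the cap binder eIF4E, the scaffold eIF4G and the helicase eIF4A, and the 4E-binding proteins keep eIF4E away from eIF4G until they are phosphorylated by mTOR complex 1. After the subunits join, eEF1A delivers aminoacyl-tRNA, the eEF1B complex recharges eEF1A with GTP, and eEF2 moves the ribosome along, unless it is phosphorylated by its kinase EEF2K. Many mRNAs of these factors, like those of ribosomal proteins, start with a run of pyrimidines and belong to the terminal oligopyrimidine (TOP) class, whose translation follows mTOR activity.

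The libraries held 27317598 counts with glucose and 31345853 without it, and 19403 and 19385 gene IDs had a count. Small RNA genes took 5.86% and 8.02% of the counts. Of the renal line markers, PAX8, a renal lineage factor, stood at 244 and 232 CPM (counts scaled per 1000000), and LHX1 was lower without glucose by the rule of size given next. The leukocyte, endothelial and erythroid markers PTPRC, CD3E, PECAM1, CDH5, HBB and HBA1 had 0 to 9 counts in either library.

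With 1 library per condition there is no replicate check and no test, so every statement compares these 2 libraries. A level is in CPM, scaled by trimmed-mean library factors. A ratio is the level with 0 mM glucose over that with 25 mM glucose on the log2 scale. Its 95% interval is an exact binomial (Clopper-Pearson) one, covers counting error only, and treats reads as independent molecules, which copies made by PCR are not. A gene is called higher or lower where that interval lies wholly past 2-fold. Fewer cells of a kind and less RNA per cell cannot be told apart in bulk RNA.

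The factor mRNAs took a larger share of the counts without glucose, and most members differed by less than 2-fold. Their counts summed to 286796 with glucose, 1.05% of the library (1.046 to 1.054%), and to 403407 without it, 1.29% (1.283 to 1.291%). Members called higher numbered 2, EIF1 and EIF2A, which is 3.77% of the 53 measured, beside 3.76% of all measured genes. No member was called lower, beside 6.20% of all measured genes. Counts of called members were thus near the background for genes that were higher.

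The small shifts had a direction. The ratio was above 0 for 36 measured members, 67.9%, beside 50.9% of all measured genes. The interval lay wholly above 0 for 34 members, 64.2%, beside 37.4% of all genes, and wholly below 0 for 11, 20.8%, beside 36.5%. Without the EIF3C, EIF3CL and EIF3IP1 rows described below, 31 of 48 measured members had a ratio above 0. Of these 48, 31 had an interval wholly above 0 and 11 had one wholly below. The median ratio was 0.37 over the members (quartiles -0.07 and 0.56) and 0.01 over all measured genes (quartiles -0.45 and 0.42). Shorter genes had higher ratios in these libraries: the median was 0.31 in the shortest of 10 length classes and -0.21 in the longest. The classes held all measured genes, small RNA genes included, so they are not classes of mRNAs alone. How far small RNA genes made the trend was not tested. After subtraction of each gene's length-class median, the members' median was 0.22. At a limit of 1.5-fold, 11 members were higher, 20.8% beside 10.2% of all genes, and 2 were lower, 3.77% beside 12.6%. The 11 included an EIF3C row and an EIF3CL row that held the same counts and cannot be read as that subunit's level. The 2 lower ones were EIF4E and EIF4EBP2.

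**Figure D1:**
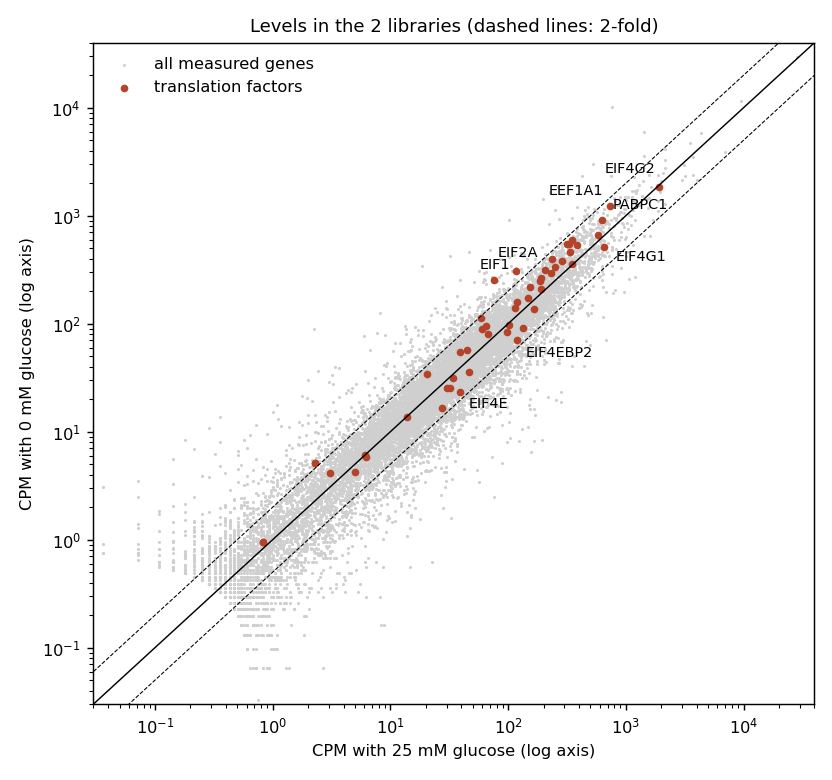
Each point is a gene, with its CPM with 25 mM glucose on the horizontal log axis and with 0 mM glucose on the vertical log axis; grey points are all measured genes with a count in both libraries and coloured points are the translation factors, EIF1AY not drawn. EIF1 and EIF2A lie beyond the upper 2-fold line, and EIF4E and EIF4EBP2 lie below the diagonal but inside the lower line.

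The factors of start codon selection held the member with the highest ratio. EIF1, which keeps the scanning ribosome from starting at a poor codon, had 2117 counts with glucose and 7828 without it, or 76.0 and 255 CPM. That is 3.35-fold higher (3.19 to 3.52), a log2 ratio of 1.74, and 316 measured genes had a ratio at least as high. The gene lies on chromosome 17 from 39845127 to 39847898 (hg19, plus strand), and all 4 of its exons had over 10 reads in both libraries. EIF1B, its close paralog, had 20.6 CPM with glucose and 34.5 without it, a log2 ratio of 0.75 (0.60 to 0.90). EIF1AX, the X-linked gene of eIF1A, the partner that keeps the scanning complex open, had 31.9 and 25.2 CPM, a log2 ratio of -0.34 (-0.48 to -0.20). EIF1AD, named for an eIF1A-like domain, had 33.7 and 31.4 CPM, with an interval that spans 0. EIF1AY, the Y-linked copy, is counted among the members and its level is not given.

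EIF2A was the other member called higher. Its product, eIF2A, is a single protein that can bind initiator tRNA and is not a subunit of the trimeric factor eIF2, whose alpha subunit is EIF2S1. EIF2A had 116 CPM with glucose and 307 without it, 2.65-fold higher (2.55 to 2.76), a log2 ratio of 1.41. All 14 exons had over 10 reads in both libraries. EIF2S1 by comparison had a log2 ratio of 0.14, and the 8 subunits of eIF2 and its exchange factor eIF2B had a median of 0.18 with none past 2-fold. EIF2D, another factor outside eIF2 that places tRNA on the ribosome, had 49.2 and 74.4 CPM, a log2 ratio of 0.60 (0.50 to 0.70).

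The EIF2A promoter window of the RefSeq set (GRCh38.p14, 250 bases before to 50 after the start) holds the endoplasmic reticulum stress response element, an element known from promoters of chaperone genes of that compartment. The stretch is shown because 27 of 35116 RefSeq windows, 0.0769%, hold the motif (CCAAT, 9 bases of any kind, then CCACG) on either strand, and EIF2A was the 1 member among 38 with a window. Capitals mark the match, which runs from 77 to 59 bases before the start, at chr3:150546695-150546743 on the plus strand.
EIF2A: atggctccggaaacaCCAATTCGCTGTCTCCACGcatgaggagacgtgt
The motif was searched after the ratio of EIF2A was known, and a match describes the letters and not a bound site. The same bases lie in the window of SERP1, a stress-associated protein of the endoplasmic reticulum, which is transcribed away from EIF2A on the minus strand. On hg19 the start of the SERP1 transcript at 150264428 and that of EIF2A at 150264574 are 146 bases apart. SERP1 had 160 CPM with glucose and 269 without it, a log2 ratio of 0.75 (0.70 to 0.80). The other motifs searched were TGACGTCA, the cyclic AMP response element, and TGATGNAA, a form of the amino acid response element. TGACGTCA was found in 0 of 38 members with a window and 1.85% of all windows. TGATGNAA was found in EIF4E3 and 3.62% of all windows. A member was counted where any of its windows held the motif, while the shares of all windows are per single window.

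**Figure D2:**
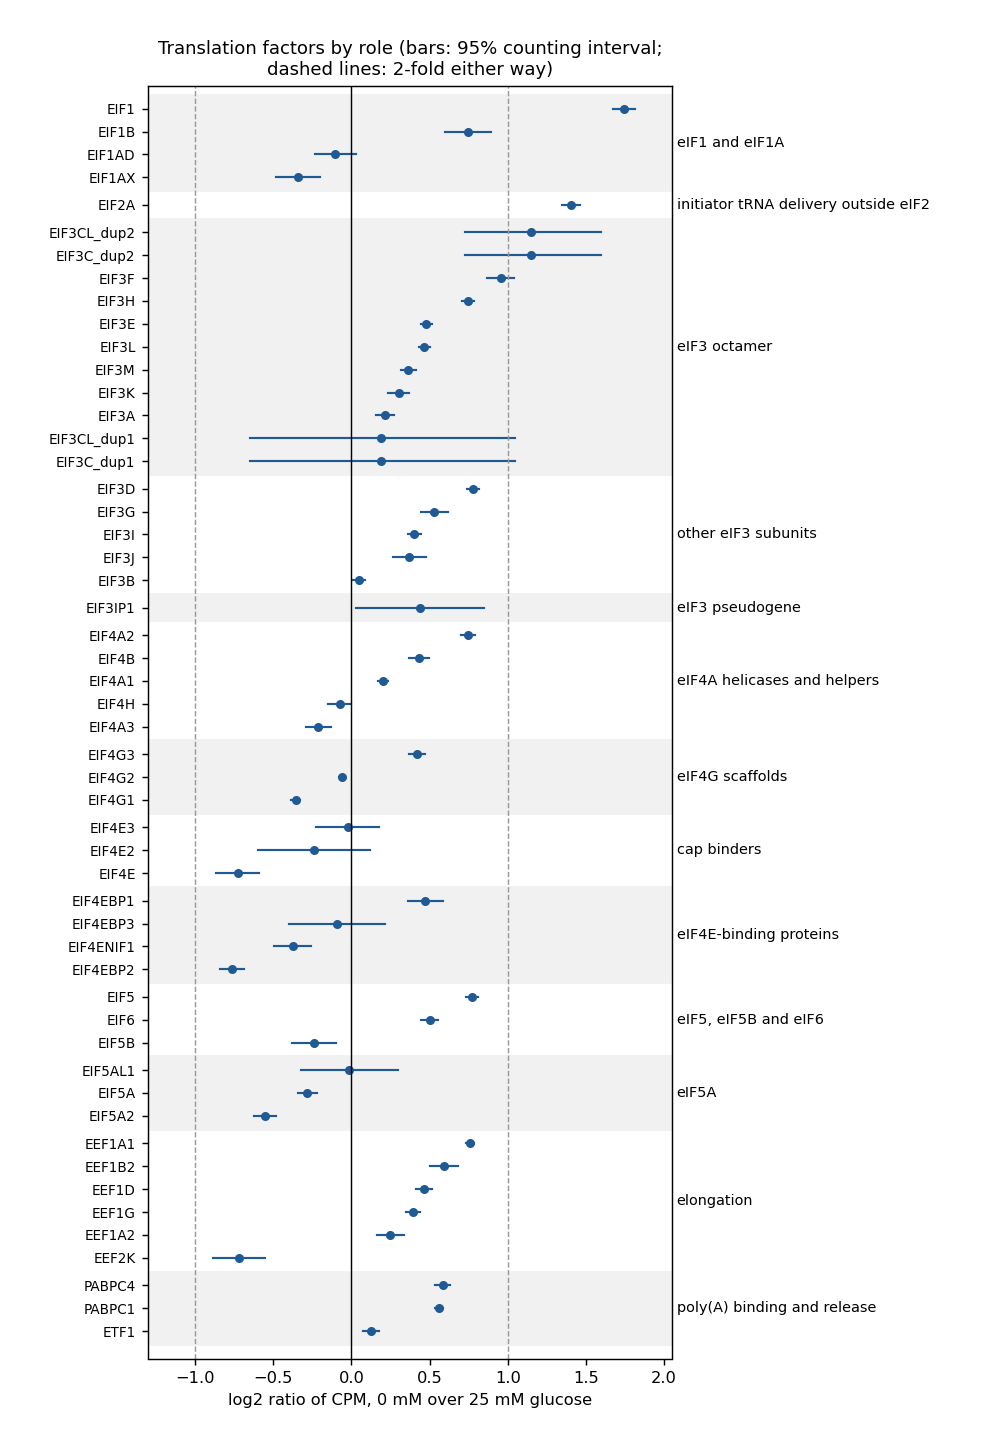
Log2 ratio of CPM (0 mM over 25 mM glucose, horizontal axis) for each measured member except EIF1AY, grouped by role; bars are 95% counting intervals and dashed lines mark 2-fold. The eIF3 subunits other than the EIF3C and EIF3CL rows and the eEF1 subunits lie right of 0 with their intervals, while EIF4E, EIF4EBP2, EIF5A, EIF5A2 and EEF2K lie left of it.

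The eIF3 complex, the largest initiation factor and the platform that holds the small subunit open for mRNA, had a ratio above 0 in every subunit that could be read. Leaving out EIF3C and its copies, 12 subunits had a median log2 ratio of 0.43, and 0.32 after subtraction of the length-class medians; all 12 intervals lay above 0. None passed 2-fold. In the octamer core, EIF3F had 58.7 CPM with glucose and 114 without it, a log2 ratio of 0.96 (0.87 to 1.04). EIF3H, which pairs with EIF3F in the core, had 329 and 552 CPM, a log2 ratio of 0.75. EIF3E had 332 and 464 CPM, a log2 ratio of 0.48. The remaining core subunits had smaller ratios: 0.47 for EIF3L, 0.36 for EIF3M, 0.30 for EIF3K and 0.21 for EIF3A, the scaffold on which the core is built. For EIF3K the ratio less its length-class median was -0.0047.

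Outside the core, EIF3D, which can itself bind the cap of some mRNAs, had 317 and 545 CPM, a log2 ratio of 0.78. The module of EIF3B, EIF3G and EIF3I, which reaches the mRNA channel, was uneven. EIF3G had 65.2 and 94.2 CPM, a log2 ratio of 0.53, and EIF3I had 289 and 382 CPM, a log2 ratio of 0.40. EIF3B, the centre of that module, had 347 and 359 CPM, a log2 ratio of 0.05 that turned to -0.01 under scaling by total counts. EIF3J, a loosely bound subunit, had 44.5 and 57.4 CPM, a log2 ratio of 0.37.

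Per kilobase of gene model, the mRNAs of this complex were far from equal in level. EIF3H was highest at 260 CPM per kilobase with glucose and 436 without it. The loosely bound EIF3J was lowest at 17.4 and 22.5, and EIF3A came next at 28.0 and 32.5. The highest level was 14.9 times the lowest with glucose and 19.4 times without it. The median level was 147 and 201 CPM per kilobase.

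**Figure D3:**
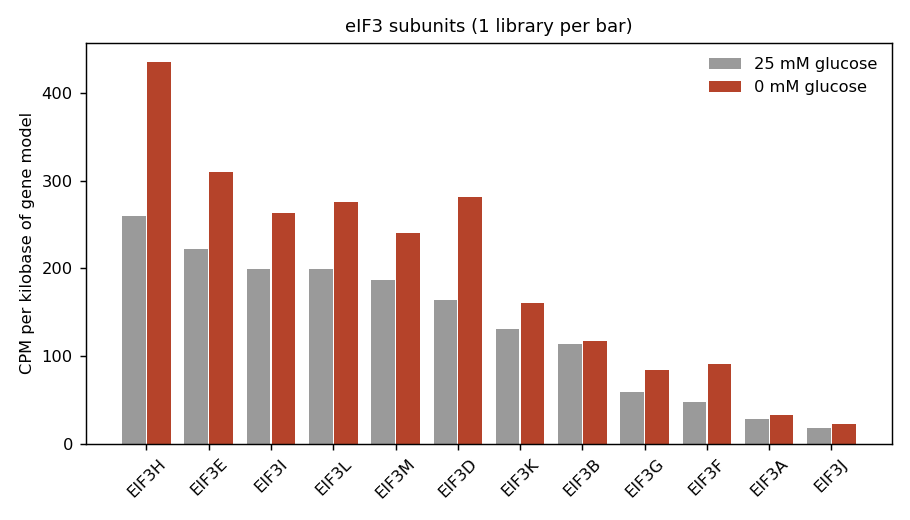
Level of each eIF3 subunit mRNA, EIF3C rows not drawn, in CPM per kilobase of gene model with 25 mM and with 0 mM glucose. EIF3H stands highest and EIF3J lowest in both libraries, and EIF3B shows the smallest difference between its levels.

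Rows for EIF3C cannot be read as the level of that subunit. EIF3C and EIF3CL are near-identical genes, each listed at 2 places; at 1 place both rows held the same 64 and 157 counts, a log2 ratio of 1.15 (0.72 to 1.59), and at the other the same 23 and 29, a log2 ratio of 0.19 (-0.65 to 1.05). These rows all lay under 2 CPM per kilobase, below any other subunit, and how reads shared between copies were counted is not stated. EIF3IP1, a processed pseudogene of EIF3I, had 85 and 127 counts. Without these 5 rows the members' median remained 0.37.

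The eIF4 group differed from eIF3: 5 of its 15 measured members had a ratio above 0 and 10 below, with a median of -0.07. Among the helicases, EIF4A1, the main eIF4A of growing cells, had 581 and 669 CPM, a log2 ratio of 0.20. EIF4A2, its paralog, had 235 and 395 CPM, a log2 ratio of 0.75. EIF4A3, a subunit of the exon junction complex and not of eIF4F, had 97.4 and 84.2 CPM, a log2 ratio of -0.21. The helicase helpers EIF4B and EIF4H had log2 ratios of 0.43 (119 and 160 CPM) and -0.07 (102 and 96.6 CPM).

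The scaffolds also divided. EIF4G1, the main scaffold of eIF4F, had 657 and 513 CPM, a log2 ratio of -0.36 (-0.39 to -0.33). EIF4G3, a paralog with the same partners, had 185 and 248 CPM, a log2 ratio of 0.42 (0.37 to 0.47). EIF4G2, which lacks the site for eIF4E, was the most counted member at 1907 and 1830.0 CPM and had a log2 ratio of -0.06, which turned above 0 (0.04) after subtraction of the length-class median.

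Cap binders had ratios below 0, that of EIF4E3 turning to 0.14 after subtraction of the length-class median. EIF4E, the cap-binding subunit of eIF4F, on chromosome 4 from 99799607 to 99851786 (hg19, minus strand), had 38.8 and 23.4 CPM. That is 1.66-fold less, a log2 ratio of -0.73 (-0.87 to -0.59). EIF4E2, a homolog that acts as a repressor at the cap, had 138 and 129 counts, and EIF4E3 had 13.8 and 13.6 CPM; both intervals span 0. Less the length-class medians, the log2 ratios were -0.63 for EIF4E and -0.55 for EIF4E2.

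The proteins that hold eIF4E had ratios of opposite sign. EIF4EBP1 had 39.3 CPM with glucose and 54.5 without it, a log2 ratio of 0.47 (0.36 to 0.58). EIF4EBP2, on chromosome 10 from 72163861 to 72188374 (hg19, plus strand), had 119 and 70.0 CPM, 1.70-fold less, a log2 ratio of -0.76 (-0.84 to -0.69), the lowest among the members. EIF4ENIF1, which carries eIF4E into the nucleus and to sites of mRNA decay, had 46.6 and 35.9 CPM, a log2 ratio of -0.37. EIF4EBP3 had 174 and 180 counts with none of its 3 exons over 10 reads, and it overlaps the readthrough gene ANKHD1-EIF4EBP3, so its level cannot be told apart from that of the longer transcript.

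At the step of subunit joining, EIF5, which makes eIF2 hydrolyse its GTP at the start codon, had 351 and 598 CPM, a log2 ratio of 0.77 (0.74 to 0.81). EIF5B, the GTPase that joins the subunits, had 30.2 and 25.6 CPM, a log2 ratio of -0.24 (-0.38 to -0.10). EIF6, which keeps the large subunit from joining too early, had 154 and 218 CPM, a log2 ratio of 0.50. The genes of eIF5A, the hypusine-carrying factor that helps peptide bonds form at proline stretches, lay on the other side. EIF5A had 167 and 137 CPM, a log2 ratio of -0.28, and EIF5A2 had 133 and 90.4 CPM, a log2 ratio of -0.55. EIF5AL1, a copy with a single exon that shares sequence with EIF5A, had 6.10 and 6.05 CPM. DHPS, the first enzyme of hypusine synthesis, had 54.5 and 98.0 CPM, a log2 ratio of 0.85, and DOHH, the second, had a log2 ratio of -0.22 with an interval that spans 0.

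All 5 eEF1 subunits among the members had intervals above 0, with a median log2 ratio of 0.47. EEF1E1, outside the rule, had 35.5 and 32.9 CPM, a log2 ratio of -0.11 (-0.24 to 0.02). EEF1A1, on chromosome 6 from 74225473 to 74230755 (hg19, minus strand), had 729 CPM with glucose and 1234 without it, a log2 ratio of 0.76 (0.74 to 0.79). The pseudogene EEF1A1P9, outside the rule, was listed at 322 and 671 CPM; it shares sequence with EEF1A1, so the division of reads between these rows is uncertain. EEF1A2, the form typical of muscle and neurons, had 67.1 and 79.8 CPM, a log2 ratio of 0.25. The exchange subunits EEF1B2, EEF1D and EEF1G had log2 ratios of 0.59 (59.6 and 89.8 CPM), 0.47 (191 and 263 CPM) and 0.40 (252 and 332 CPM).

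The translocase and its kinase had ratios of opposite sign. EEF2, outside the rule, had 2144 CPM with glucose and 4158 without it, 1.94-fold more (1.92 to 1.96), and its share of all counts went from 0.219% to 0.408%. EEF2K, which inactivates eEF2 by phosphorylation, had 27.4 and 16.6 CPM, a log2 ratio of -0.72 (-0.88 to -0.56). Neither passed the 2-fold rule.

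PABPC1, the main cytoplasmic poly(A)-binding protein, which bridges the mRNA tail to eIF4G, had 625 and 921 CPM, a log2 ratio of 0.56. PABPC4, its paralog, had 207 and 311 CPM, a log2 ratio of 0.59. ETF1, the release factor that reads stop codons, had 191 and 208 CPM, a log2 ratio of 0.13. GSPT1, the GTPase partner of ETF1, was on the other side with 504 and 386 CPM, a log2 ratio of -0.39.

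Because several factors are made from paralogous genes, the balance within 8 pairs was compared as the difference of their log2 ratios, first gene minus second, with intervals that combine the counting errors of both genes by a normal approximation. EIF4EBP1 over EIF4EBP2 shifted by 1.24 (1.10 to 1.37), so that EIF4EBP1 made up 74.4% of the pair's level per kilobase with glucose and 87.3% without it. Less the length-class medians this difference was 0.72, below the 1.14 of EIF1 over EIF1B. EIF1 over EIF1B shifted by 0.998 (0.84 to 1.16), from 73.8% to 84.9%. EIF4G1 over EIF4G3 shifted by -0.78 (-0.84 to -0.72), from 80.0% to 69.9%. EIF4A1 over EIF4A2 shifted by -0.54 (-0.60 to -0.49), from 71.7% to 63.4%. In both of these eIF4F pairs the more abundant gene lost share.

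EEF1A1 over EEF1A2 shifted by 0.51 (0.42 to 0.60), from 85.0% to 89.0%. EIF4E over EIF4E2 shifted by -0.49 (-0.86 to -0.12), from 60.9% to 52.6%, and this difference was -0.080 after subtraction of the length-class medians. EIF5A over EIF5A2 shifted by 0.27 (0.18 to 0.36), from 79.4% to 82.3%, and this difference turned to -0.04 after subtraction of the length-class medians. PABPC1 and PABPC4 kept nearly the same shares, 77.2% and 76.9% for PABPC1, with a difference of -0.03 (-0.08 to 0.03).

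**Figure D4:**
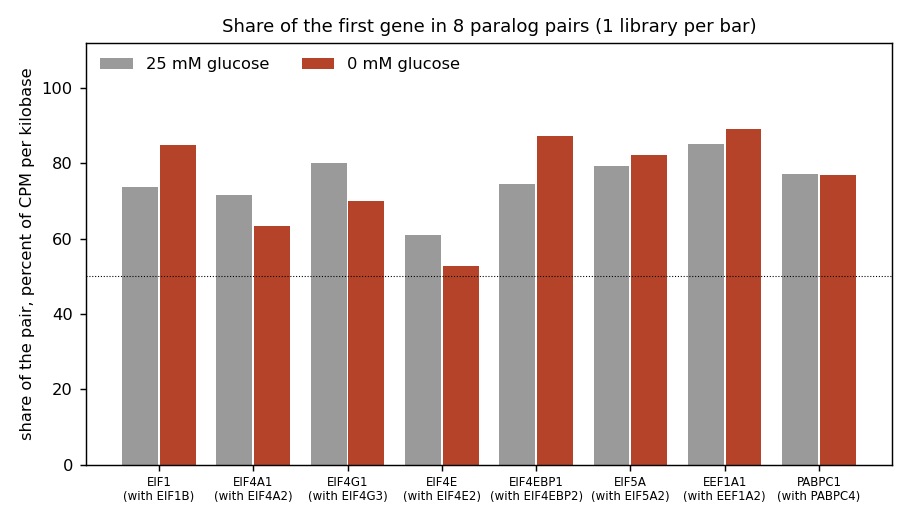
Share of the first gene in each paralog pair's level per kilobase (percent) with 25 mM and with 0 mM glucose. The EIF1 and EIF4EBP1 shares are larger without glucose, the EIF4G1 and EIF4A1 shares are smaller, and the PABPC1 share lies at about the same place in both.

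Members with a pyrimidine start had a higher median ratio than the others with a RefSeq window, with ranges that overlapped and no test of the difference. A start was counted as such where a RefSeq transcript start is C followed by at least 4 C or T. RefSeq windows matched 38 of the 53 measured members by symbol, and 9 of these, 23.7%, had a pyrimidine start, beside 702 of 9367 matched measured genes (7.49%) and 4.07% of all windows. A gene was counted where any of its starts qualified, while the share of windows is per single start, so those units differ. The starts of the 9 are shown because these members share the pattern, together with EEF2 and EIF2D. Each line gives 15 bases before and 15 from the start on (GRCh38.p14), on the gene's strand, with the pyrimidine run from the start in capitals.
EEF1A1, chr6:73521018-73521047, minus strand: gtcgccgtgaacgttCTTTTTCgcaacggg
EEF1B2, chr2:206159880-206159909, plus strand: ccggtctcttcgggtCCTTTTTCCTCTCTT
EIF2A, chr3:150546772-150546801, plus strand: tcacccgagcggtttCTCTTTCCgggacaa
EIF3D, chr22:36529152-36529181, minus strand: gcgcgcgcatgtttcCTCTTTTCCTggttt
EIF3F, chr11:7987322-7987351, plus strand: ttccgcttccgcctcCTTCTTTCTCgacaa
EIF3K, chr19:38619173-38619202, plus strand: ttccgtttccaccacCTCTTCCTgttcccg
EIF3M, chr11:32583816-32583845, plus strand: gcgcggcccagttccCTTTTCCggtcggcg
EIF4A2, chr3:186783562-186783591, plus strand: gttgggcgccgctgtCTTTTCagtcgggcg
EIF4B, chr12:53006441-53006470, plus strand: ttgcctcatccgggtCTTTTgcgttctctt
EEF2, chr19:3985449-3985478, minus strand: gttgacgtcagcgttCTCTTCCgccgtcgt
EIF2D, chr1:206612451-206612480, minus strand: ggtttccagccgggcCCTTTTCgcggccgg

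For contrast, the starts of EIF1, the member with the highest ratio, and of the 3 with the lowest ratios follow, with the start base in capitals.
EIF1, chr17:41688870-41688899, plus strand: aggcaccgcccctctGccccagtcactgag
EIF4E, chr4:98929119-98929148, minus strand: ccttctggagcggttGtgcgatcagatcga
EIF4EBP2, chr10:70404130-70404159, plus strand: ctcccgccttcgcccGcttccggtcgtcgt
EEF2K, chr16:22206263-22206292, plus strand: tgcccgcccgcttctGctcaacctagacca
None of these begins with C.

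All 9 members with a pyrimidine start had a ratio above 0, with a median of 0.75 and a range from 0.30 for EIF3K to 1.41 for EIF2A. The 29 members with another start had a median of -0.06 and a range from -0.76 for EIF4EBP2 to 1.74 for EIF1. Of these 29, 12 (41.4%) were above 0. The measured members without a window, among them EIF3E, EIF3H, EEF1D and PABPC1, are in neither group. All of them had a ratio above 0, so the split leaves out only members above 0. Over the 9367 measured genes with a window the same split was narrower: the median was 0.12 with a pyrimidine start and -0.03 with another start, and 58.0% and 48.2% were above 0. The members with a pyrimidine start were shorter, with a median gene model of 1879 bases against 3062. Less the length-class medians, the members' medians were 0.60 and 0.04. The annotated start need not be the one used in these cells.

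A list of members that are known TOP mRNAs, drawn up from general knowledge, includes genes without a window and differs in part from the split by start. It holds EEF1A1, EEF1A2, EEF1B2, EEF1D, EEF1G, EIF3E, EIF3F, EIF3H, EIF4B and PABPC1. All 10 had a ratio above 0, from 0.25 for EEF1A2 to 0.96 for EIF3F, with a median of 0.52. EEF1G is on it although its RefSeq start did not count as a pyrimidine start, and EIF2A, EIF3D, EIF3K, EIF3M and EIF4A2, with such starts, are not. The 43 other measured members had a median of 0.20, and 26 of them were above 0. The 77 measured cytosolic ribosomal proteins, the largest TOP class, had a median of 0.65, with 76 above 0. Less the length-class medians, the median was 0.40 for the ribosomal proteins and 0.50 for the 10 members, so the order of these medians turned round. The length classes include small RNA genes and the ribosomal proteins themselves, so this is not a comparison among mRNAs matched in length. No difference between the medians of these lists was tested.

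**Figure D5:**
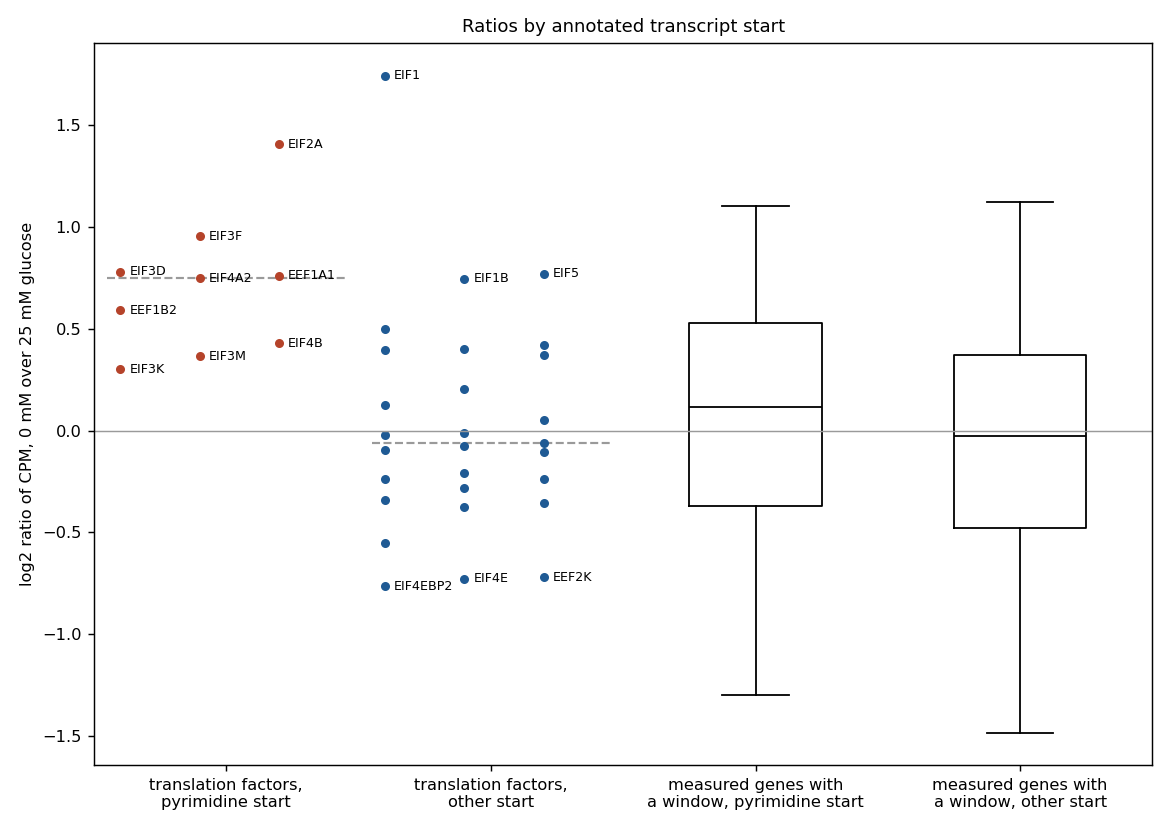
Log2 ratio of CPM (0 mM over 25 mM glucose, vertical axis) for members by annotated start (points, EIF1AY not drawn; dashed line, median over the members including it) and for measured genes with a window (box, quartiles and median; whiskers, 5th and 95th percentiles). Members with a pyrimidine start lie from 0.30 to 1.41, while those with another start spread from -0.76 to 1.74.

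Small RNA genes lie within 10 of the member genes, and 17 such rows had at least 20 counts. Their median log2 ratio was 0.61, against 0.21 for their hosts, and 16 were above 0. The ratios ran from -0.06 for SNORD51 to 1.16 for SNORA41, both inside EEF1B2, whose own ratio was 0.59. In 4 hosts a small RNA had more counts than the host in both libraries. SNORA81 inside EIF4A2 had 2147 and 3270 CPM beside 235 and 395 for its host, and SNORD10 inside EIF4A1 had 2052 and 2503 beside 581 and 669. In these 4 hosts, not all reads of that small RNA can be in the host's count. Whether part of such reads entered the hosts' counts was not tested.

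On the opposite strand, RFC4 overlaps EIF4A2 and had 56.7 and 36.0 CPM, a log2 ratio of -0.66, away from that of EIF4A2. SPG11 overlaps EIF3J and had a log2 ratio of 0.24. BANF1 overlaps EIF1AD and had a log2 ratio of -0.01. The sources used here do not say whether counting used the strand, so reads of such neighbours cannot be told apart.

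Among 42 other genes of the pathway, 41 were measured, 1 was called higher and 1 lower, and the median log2 ratio was 0.07. Less the length-class medians it was 0.15, beside 0.22 for the members. The gene called higher was PABPC1L, a poly(A)-binding protein best known from oocytes, with 13.3 and 33.3 CPM and a log2 ratio of 1.32. The gene called lower was RPS6KA1, a kinase downstream of ERK, with 64.7 and 24.9 CPM and a log2 ratio of -1.38. The 16 regulators had a median of 0.01: MTOR stood at -0.13, RPTOR at 0.20, RPS6KB1 at 0.18 and LARP1, which binds TOP mRNAs, at 0.12. The kinases of eIF4E divided, with 0.47 for MKNK1 and -0.63 for MKNK2.

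The 9 factors of mitochondrial translation had a median log2 ratio of 0.49. MTIF2, the mitochondrial initiation factor that brings in the initiator tRNA, had 47.5 and 95.6 CPM, a log2 ratio of 1.01 (0.91 to 1.10). GFM2, a ribosome recycling factor of mitochondria, had 54.1 and 103 CPM, a log2 ratio of 0.93. DENR, which works with MCTS1 in reinitiation and recycling, had 73.5 and 53.1 CPM, a log2 ratio of -0.47, while MCTS1 stood at 0.02. PAIP1, a partner of PABPC1 that stimulates translation, had a log2 ratio of 0.63, and PAIP2, a partner that inhibits it, had -0.11.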

How the data were processed

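RNA was sequenced from 1 library per condition (25 mM and 0 mM glucose). The authors deposited a table per library with read counts per gene, RPKM and the number of exons with over 10 reads, per the file headers; the build is hg19, per the submitters' processing notes. The sources used here do not name the aligner, counter or strand setting. Of 24364 rows, 528 repeats were dropped. Counts were scaled to CPM with TMM factors (edgeR 4.0.16; 1.02 and 0.981) from genes with at least 20 counts. Exact 95% binomial intervals came from scipy 1.17.1. The interval's half-width had a median of 0.07 (log2) over the members and was at most 0.85. The deposited RPKM served as a check of the paralog differences. Calculations were tested on simulated data. With 1 library per group, count models were not fitted.

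The members and lists were chosen with earlier results of these data known. Full values were given for members past 2-fold, the 2 largest ratios of each role with at least 10 CPM, the paralog pairs and, in other lists, genes past 2-fold, EEF2 and up to 2 with the largest ratios; the remaining genes named were chosen after their values were seen. EIF1AY has no printed level. Motifs were searched on both strands in RefSeq windows (GRCh38.p14, sequence only). Alternatives were DESeq2 1.42.0 size factors, upper-quartile and total scaling, other count minimums, 1.5-fold, all rows kept, and small RNA rows, copies or hosts of small RNAs left out. Not every marker checked is reported here.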

Additional observations from a re-analysis of the deposited data

How the results depend on the processing

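No paired analysis was possible because each condition has 1 library. EIF1 and EIF2A were the members called higher, and none was called lower, in each of the 10 settings that kept the 2-fold limit. At 1.5-fold, 11 were higher, among them an EIF3C row and an EIF3CL row with the same counts, and 2 were lower. The median over all measured genes lay between -0.04 (total scaling) and 0.05 (upper-quartile scaling). Subtracting the length-class medians moved the members' median to 0.22 and the difference between pyrimidine and other starts from 0.81 to 0.56. With it, the paralog differences became -0.080 for EIF4E over EIF4E2, 0.72 for EIF4EBP1 over EIF4EBP2, -0.043 for EIF5A over EIF5A2 (reversed from 0.27), 0.69 for EEF1A1 over EEF1A2 and -0.11 for PABPC1 over PABPC4. Among single genes, EIF1B moved to 0.44, EIF4A1 to 0.05, EIF4EBP1 to 0.17, EEF1A2 to 0.10 and EIF4G1 to -0.19. By its construction this setting shifts genes of different length classes by different amounts. The cause of the length trend was not tested. Of the other values for the set and the pairs, 123 stayed within their band, and of the values for single genes 404 did and 62 did not. The band was the counting interval for genes and pairs, and within 1.5 times for counts. For set medians it ran between the medians of the genes' interval bounds. For the start difference it combined median interval widths. The bands of set medians and of the start difference are not counting intervals of those values. Members whose sign depended on the setting were EIF3B (total scaling), EIF4E3 and EIF5AL1 (upper-quartile), EIF5AL1 (small RNA rows left out, or a minimum of 1 count), and EIF3K, EIF4E3, EIF4G2 and EIF5AL1 (length class). Depth limits the copies of EIF3C, EIF4E1B, EIF4E2, EIF4EBP3 and EIF5AL1, all under 10 CPM.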

Other observations

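The stress response element found before EIF2A also stood in the windows of chaperone and quality control genes of the endoplasmic reticulum. RefSeq windows of 25 genes held it, and 15 of these were measured. Of the 15, 9 were called higher without glucose, beside 3.76% of all measured genes, and 0 were called lower; their median log2 ratio was 1.34. The 9 include EIF2A, whose ratio prompted the search, and the pairs EIF2A and SERP1, and ALG12 and CRELD2, hold the same matched bases, so the genes are not independent. HSPA5, the chaperone BiP, had 756 CPM with glucose and 10092 without it, a log2 ratio of 3.74. HSP90B1, the Hsp90 of this compartment, had 524 and 2992 CPM, a log2 ratio of 2.51. CRELD2 had a log2 ratio of 2.45, CALR 2.07, TMEM120A 1.73, FICD 1.55, PDIA6 1.34 and CANX 1.33. XBP1, a transcription factor of the unfolded protein response, had 268 and 475 CPM, a log2 ratio of 0.83, and did not pass 2-fold. ZNF17 and SYNPO, which also held the motif, had log2 ratios of -0.08 and -0.24. These genes were listed after the data had been seen. The element is itself known from promoters of chaperone genes of this compartment, so the count is only a description.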
